A study of Mus musculus with 6 samples.

Results

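The genes described here are 42 mouse genes of DNA replication licensing and of the replication fork. They were chosen by name for their function, but with earlier results of these data known. They cover the MCM2-7 helicase, origin licensing, helicase activation, the sliding clamp and its loader, the replicative polymerases and primase, single-strand binding and lagging-strand processing, maintenance DNA methylation and the transcription factor E2f1. All 42 were among the 22274 genes measured, and all 42 passed the filter on low counts, which 14005 genes passed. Bulk RNA was sequenced from isolated ileal epithelial cells of mice, in 3 Ogt knockout and 3 control libraries. In the knockout, floxed Ogt was deleted with Olfm4-CreER, a tamoxifen-inducible recombinase driven from a gene of crypt base stem cells. Ogt encodes O-GlcNAc transferase, which modifies proteins of the nucleus and cytoplasm with the sugar N-acetylglucosamine. The control genotype is given as LoxP, and no driver is given for it, so that effects of the recombinase cannot be told apart from those of losing Ogt. Per the labels, mice aged 2 months received tamoxifen on 3 successive days, and tissue was taken on day 10, when the labels describe the knockout ileal epithelium as negative for Ogt. Whether each library is from its own mouse is not stated in the labels, so p-values refer to the spread among these samples, which may be technical.

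Replication is prepared in G1, when the origin recognition complex, CDC6 and CDT1 load the MCM2-7 ring onto DNA, a step called licensing. In S phase the kinase CDC7, with its activator DBF4, and the cyclin-dependent kinases turn the loaded ring into an active helicase by adding CDC45 and GINS. Polymerase alpha-primase then starts each strand, replication factor C loads the sliding clamp PCNA, and polymerases delta and epsilon extend the DNA. Many of these genes are transcribed by E2F factors, which the RB protein restrains. In the ileum, replication takes place in the crypts, among stem cells and transit-amplifying progenitors, while the enterocytes of the villus do not divide.

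Ogt transcripts were at 48.5, 43.0 and 36.0 CPM (counts scaled to library size with TMM factors) in the knockout libraries, against 140, 127 and 128 CPM in the controls. The log2 fold change was -1.63 ± 0.13 (SE, adjusted p = 0.00121). Ogt transcripts were thus lower but still present in the knockout libraries, and their origin was not tested. Whether the labels' description of the epithelium as negative concerns RNA or protein is not known here, so it is not set against these values. Libraries held between 14389429 and 18076486 counts, and a replication gene had between 12 and 1878 counts in a library. Of all tested genes, 2619 passed the threshold of an adjusted p under 0.05 (18.7%), 1307 of them higher in the knockout (9.33%) and 1312 lower (9.37%). All adjusted p-values come from edgeR's quasi-likelihood test with Benjamini-Hochberg adjustment over the 14005 genes, unless another tool is named. The split depended on the scaling: with library size alone it was 2045 higher and 859 lower. With limma on log2(FPKM + 0.1), which also changed the test and the filter (11832 genes), it was 1906 higher and 724 lower. The median log2 fold change of all tested genes was -0.05 with TMM factors, 0.09 with library size alone and 0.12 on FPKM.

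Of the 42 replication genes, 8 were higher in the Ogt knockout libraries and 0 were lower. These were 4 of the 5 clamp loader subunits (Rfc2, Rfc3, Rfc4 and Rfc5), both subunits of the origin firing kinase (Cdc7 and Dbf4), the polymerase delta subunit Pold2 and the licensing factor Cdt1. None of the 6 genes of the MCM2-7 ring passed the threshold, nor did the clamp Pcna, the large loader subunit Rfc1 or E2f1. The 8 genes made up 19.0% of the replication genes, against the 9.33% of all tested genes that were higher. Since the 42 genes were chosen with earlier results of these data known, such shares are a description and not a test. The fold change was positive for 35 of the 42 and negative for 7, with a median log2 fold change of 0.34 and a range of -0.42 to 1.06. It was positive for 27 without control 2, for 29 without knockout 3, and for 35 to 39 without any other library. The 34 genes that did not pass the threshold had a median log2 fold change of 0.18. The groups did not overlap, with the knockout higher, for 13 of the 42 genes (31.0%), against 19.6% of all tested genes. In the direction of the controls 0 of the 42 genes were free of overlap, against 20.2% of all tested genes. At an unadjusted p under 0.05, 13 replication genes were past the threshold (31.0%), all of them higher, against 34% of all tested genes in either direction, and DESeq2 and limma voom also called 0 lower. In bulk RNA, fewer cells of a type and less RNA per cell cannot be told apart.

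**Figure D1:**
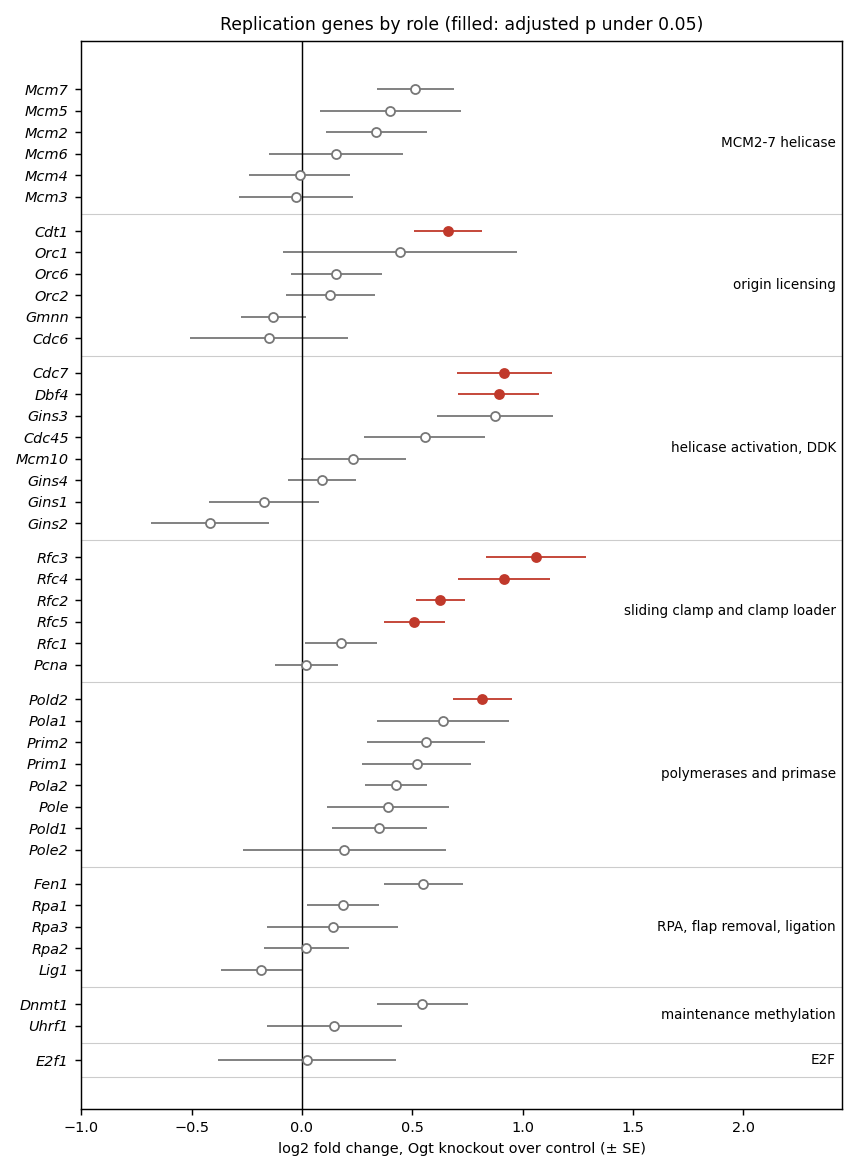
Log2 fold change (Ogt knockout over control, points) with its SE (bars) for the 42 replication genes, grouped by role, with filled points for an adjusted p under 0.05. The 8 filled points lie between 0.51 and 1.06, and 4 of them belong to the clamp loader.

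The clamp loader was the role with the most genes past the threshold, 4 of 6 with Pcna counted in it. Replication factor C is a ring of 1 large subunit, RFC1, and the small subunits RFC2 to RFC5, and it opens PCNA and closes it around DNA. Rfc3 stood at 15.2, 12.3 and 18.2 CPM in the knockout libraries, against 8.52, 5.397 and 8.003 CPM in the controls. Its log2 fold change was 1.06 ± 0.23 (SE, adjusted p = 0.0173), the largest among the 42 genes, and every knockout library lay above every control. Rfc4 had 15.5, 13.3 and 17.6 CPM in knockout libraries and 9.44, 6.06 and 9.06 CPM in controls, a log2 fold change of 0.92 ± 0.21 (adjusted p = 0.0212). Rfc2 had 48.9, 53.8 and 53.2 CPM in knockout libraries and 37.7, 31.1 and 32.1 CPM in controls, a log2 fold change of 0.63 ± 0.11 (adjusted p = 0.00955). Rfc5 had 28.0, 25.4 and 32.1 CPM in knockout libraries and 20.8, 17.9 and 21.4 CPM in controls, a log2 fold change of 0.51 ± 0.14 (adjusted p = 0.0386). The groups were apart for all 4 small subunits, and control 2 was the lowest library for each of them.

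The large subunit and the clamp overlapped between the groups. Rfc1 had 42.5, 31.8 and 38.6 CPM in knockout libraries, against 39.7, 28.1 and 32.1 CPM in controls, a log2 fold change of 0.18 ± 0.16 (adjusted p = 0.490). Pcna had 79.1, 75.2 and 99.3 CPM in knockout libraries, against 92.6, 71.9 and 85.9 CPM in controls, a log2 fold change of 0.02 ± 0.14 (adjusted p = 0.940). Its sign turned without knockout 3, where the log2 fold change was -0.11, and without control 2, where it was -0.05. Of the clamp loader calls, Rfc2 held without any 1 library (highest adjusted p = 0.0462). Rfc3 lost its call without knockout 3 or control 3 (highest adjusted p = 0.0766), and Rfc4 without knockout 1, knockout 3 or control 3 (0.0893). Rfc5 held its call without control 1 and lost it without any other library (0.136).

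Compared per length, the order of the mean levels of the loader subunits differed between the groups, without being resolved beyond the SDs. In the authors' deposited FPKM values, Rfc1 averaged 9.54 ± 1.07 in knockout libraries, the lowest of the 5 subunits, and 7.40 ± 0.90 in controls, the highest (SD, n = 3 each). In knockout 1, Rfc1 (9.97 FPKM) was not the lowest, since Rfc2 stood at 9.84 FPKM. Rfc4 averaged 13.4 ± 2.16 FPKM in knockout libraries and 6.39 ± 1.53 FPKM in controls. Rfc2 to Rfc5 ranged from 10.9 to 13.4 FPKM in knockout libraries and from 5.30 to 6.90 FPKM in controls. Within each group neighbouring subunits, Rfc1 included, lay within their SDs. The ratio of Rfc3 to Rfc1 within a library, which no library scaling changes, was 1.16, 1.18 and 1.46 in knockout libraries, against 0.770, 0.599 and 0.756 in controls. This pair was chosen after the values were seen, and the ratio was not tested.

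The antisense overlap of some loader genes limits what can be said of them, since the library kit does not mark the strand. In GENCODE M21, 12.7% of the exon bases of Rfc4 are shared with Eif4a2 on the other strand, 15.1% of those of Rfc2 with Lat2, and 10.7% of those of Rfc5 with Wsb2. Eif4a2 had 24233 counts over the 6 libraries, against 1206 for Rfc4, and it fell in the knockout, by 0.63 ± 0.12 on the log2 scale (adjusted p = 0.0138), opposite to Rfc4. Lat2 and Wsb2 had log2 fold changes of -0.25 ± 0.21 and -0.14 ± 0.15, and neither passed the threshold. Rfc3 shared no exon base with another gene.

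Both subunits of the origin firing kinase were higher. Cdc7 encodes the catalytic subunit, which phosphorylates the loaded MCM ring, and Dbf4 the regulatory subunit that activates it. Cdc7 had 8.99, 7.55 and 8.36 CPM in knockout libraries, against 5.36, 3.58 and 4.24 CPM in controls, a log2 fold change of 0.92 ± 0.22 (adjusted p = 0.0237). Dbf4 had 27.9, 21.6 and 23.5 CPM in knockout libraries, against 15.6, 10.2 and 13.4 CPM in controls, a log2 fold change of 0.89 ± 0.18 (adjusted p = 0.0153). The groups were apart for both genes. Per length, Dbf4 averaged 10.8 ± 0.84 FPKM in knockout libraries and 5.31 ± 1.18 FPKM in controls, and Cdc7 averaged 2.95 ± 0.20 FPKM in knockout libraries and 1.42 ± 0.31 FPKM in controls. Dbf4 lost its call without knockout 3 or control 3 (highest adjusted p = 0.0561). Cdc7 lost it without any 1 library other than control 1 (highest adjusted p = 0.0838).

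The other 6 genes of helicase activation did not pass the threshold. They were Mcm10, Cdc45 and the 4 GINS subunits, whose products join or stabilise the active helicase. Gins3 came nearest, with 3.802, 5.67 and 4.66 CPM in knockout libraries against 3.10, 2.30 and 2.29 CPM in controls, a log2 fold change of 0.88 ± 0.26 (adjusted p = 0.0530). Its groups were apart. Gins4, the gene of this role with the highest FPKM averaged over both groups, had 14.7, 12.1 and 13.6 CPM in knockout libraries and 14.3, 11.6 and 12.0 CPM in controls. Its log2 fold change was 0.09 ± 0.15 (adjusted p = 0.717), and its groups overlapped. Gins2 had the lowest log2 fold change of the 42 genes, -0.42 ± 0.27 (adjusted p = 0.316). Of its exon bases, 67.3% are shared with Gse1 on the other strand, so the values of this gene are uncertain.

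**Figure D2:**
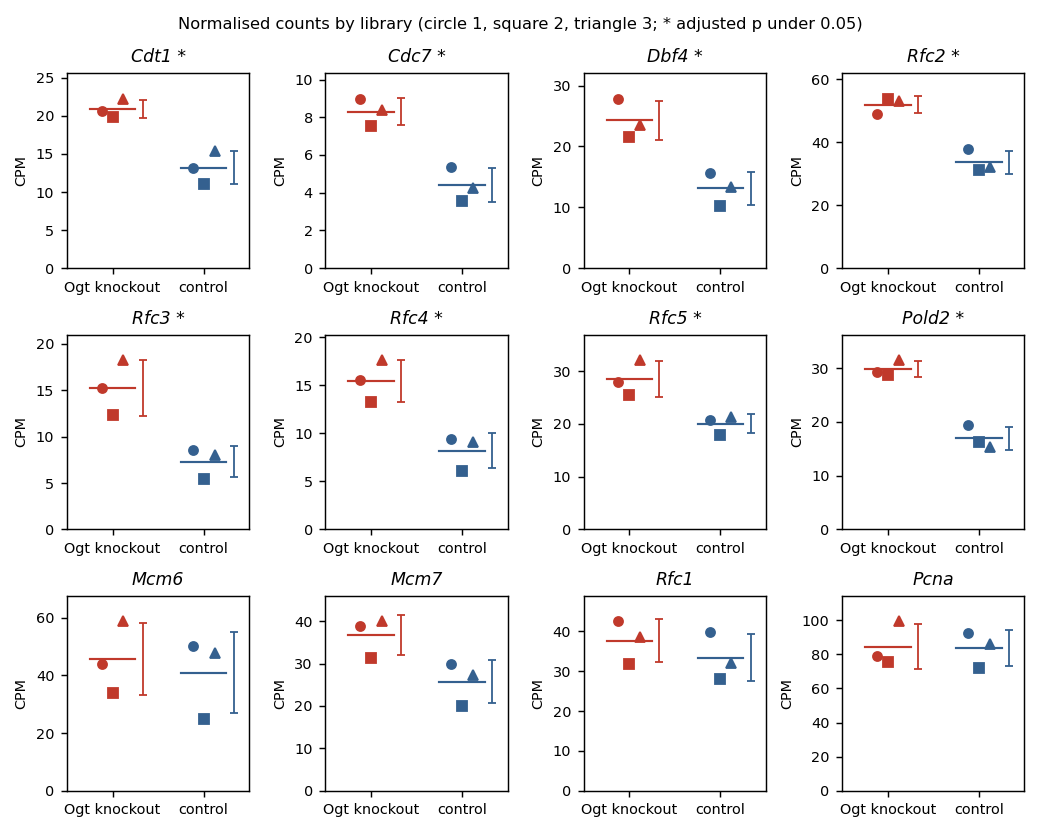
CPM in each library (circle, square and triangle for libraries 1, 2 and 3) of the 8 genes past the threshold, marked with an asterisk, and of Mcm6, Mcm7, Rfc1 and Pcna, with lines for group means and bars for ± SD. The knockout libraries lie above every control in the 8 marked panels and for Mcm7, and the groups overlap for Mcm6, Rfc1 and Pcna.

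Of the polymerase and primase genes, 1 of 8 was higher (12.5%, against 9.33% of all tested genes). All 8 had a positive fold change, with a median log2 fold change of 0.47. Pold2, a non-catalytic subunit of polymerase delta, had 29.4, 28.8 and 31.5 CPM in knockout libraries, against 19.4, 16.2 and 15.3 CPM in controls. Its log2 fold change was 0.82 ± 0.13 (adjusted p = 0.00683), the smallest adjusted p among the 42 genes, and it held without any 1 library (highest adjusted p = 0.0371). The 3 knockout libraries were close together and lay above all controls. Pold1, the catalytic subunit, had a log2 fold change of 0.35 ± 0.22 (adjusted p = 0.293). The 4 genes of polymerase alpha-primase, which lays down the RNA-DNA primers, had log2 fold changes of 0.43 (Pola2), 0.52 (Prim1), 0.56 (Prim2) and 0.64 (Pola1), with adjusted p-values between 0.0703 and 0.180. Pole and Pole2, the catalytic subunit and second subunit of polymerase epsilon, had log2 fold changes of 0.39 and 0.19, and neither passed. Per length, Pold2 averaged 19.0 ± 1.54 FPKM in knockout libraries and 9.86 ± 1.49 FPKM in controls. Pold1 averaged 3.98 ± 0.71 FPKM in knockout libraries and 2.84 ± 0.74 FPKM in controls. The ratio of Pold2 to Pold1 within a library was 5.68, 4.12 and 4.83 in knockout libraries, against 3.25, 4.48 and 3.003 in controls. These ratios overlapped between the groups, since control 2 lay above knockout 2, and they were not tested.

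Among the origin licensing genes, Cdt1 was the 1 of 6 past the threshold. CDT1 brings the MCM ring to the origin, and geminin, the product of Gmnn, binds and blocks it. Cdt1 had 20.6, 19.9 and 22.3 CPM in knockout libraries, against 13.2, 11.04 and 15.4 CPM in controls, a log2 fold change of 0.66 ± 0.15 (adjusted p = 0.0228). The groups were apart, but the call was lost without any 1 knockout library or without control 2 (highest adjusted p = 0.0888). Gmnn had 12.9, 11.3 and 14.3 CPM in knockout libraries, against 14.6, 14.0 and 13.5 CPM in controls, a log2 fold change of -0.13 ± 0.15 (adjusted p = 0.572). Its groups overlapped, and its sign turned with library size alone (0.0068). Cdc6, the other loading factor, and the origin recognition genes Orc1, Orc2 and Orc6 had log2 fold changes between -0.15 and 0.44, with SEs from 0.20 to 0.53, and none passed. Of the exon bases of Orc2, 29.8% are shared with Nif3l1 on the other strand.

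The MCM2-7 ring, the motor of the replicative helicase, gave 0 calls of 6 genes, with log2 fold changes from -0.03 to 0.51 and a median of 0.25. At an unadjusted p under 0.05, 1 of the 6 was past the threshold, Mcm7. With DESeq2's test, library size alone or limma on log2(FPKM + 0.1), with either FPKM minimum, or log2(FPKM + 1), Mcm7 was called higher, and it was also called higher without control 1. Mcm7 had 38.8, 31.3 and 40.0 CPM in knockout libraries, against 29.8, 20.01 and 27.2 CPM in controls, a log2 fold change of 0.51 ± 0.17 (adjusted p = 0.0744), and its groups were apart. Of the exon bases of Mcm7, 1.45% are shared with Cops6 and 7.25% with Ap4m1, both on the other strand. Cops6 had a log2 fold change of 0.80 ± 0.10 (adjusted p = 0.00288), and Ap4m1 one of -0.30 ± 0.14 (adjusted p = 0.178). Mcm6, the most abundant of the ring per length, had 43.9, 34.0 and 58.8 CPM in knockout libraries, against 50.2, 24.8 and 47.8 CPM in controls. The log2 fold change of Mcm6 was 0.15 ± 0.30 (adjusted p = 0.757), and both groups spread widely. Its sign turned without knockout 3 or without control 2 (-0.07 in each case). The 4 other ring genes overlapped between the groups, with adjusted p-values between 0.341 and 0.979.

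Within a library, the small loader subunits and the kinase pair could be set against the MCM ring. Taking the mean log2(CPM + 0.5) of each set, centred on the gene means over the 6 libraries, Rfc2 to Rfc5 minus the MCM genes gave 0.20, 0.41 and 0.15 in knockout libraries, against -0.40, 0.02 and -0.37 in controls. Cdc7 and Dbf4 minus the MCM genes gave 0.44, 0.47 and 0.03 in knockout libraries, against -0.36, -0.07 and -0.50 in controls. These sets were chosen after the values were seen. The loader and kinase sets hold only genes past the threshold and the MCM set holds none, so the separation between the groups follows largely from that choice. The differences were not tested.

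Of single-strand binding, flap removal and ligation, 0 of 5 genes passed the threshold with edgeR, and 1 had an unadjusted p under 0.05 (Fen1, which DESeq2 called higher). The median log2 fold change of the 5 was 0.14. Fen1, the nuclease that removes RNA-DNA flaps between Okazaki fragments, had 21.6, 20.1 and 24.1 CPM in knockout libraries, against 18.1, 11.6 and 15.1 CPM in controls. Its log2 fold change was 0.55 ± 0.18 (adjusted p = 0.0681), and its groups were apart, though 78.8% of its exon bases lie opposite the antisense gene Gm10143. Rpa3, the smallest subunit of the single-strand binding complex RPA, had 9.05, 7.39 and 9.52 CPM in knockout libraries, against 11.8, 5.76 and 6.002 CPM in controls, a log2 fold change of 0.14 ± 0.30 (adjusted p = 0.774). Rpa1, Rpa2 and Lig1, the ligase that seals the fragments, had log2 fold changes of 0.19, 0.02 and -0.18, with adjusted p-values of 0.457 or more. Dnmt1, which copies methylation onto the new strand, had 36.4, 40.9 and 49.5 CPM in knockout libraries, against 32.0, 20.7 and 34.2 CPM in controls, a log2 fold change of 0.55 ± 0.20 (adjusted p = 0.102) with groups apart. Uhrf1, which recruits DNMT1 to hemimethylated DNA, had a log2 fold change of 0.15 ± 0.30 (adjusted p = 0.769). E2f1 had 4.49, 1.67 and 4.60 CPM in knockout libraries, against 4.08, 2.55 and 3.94 CPM in controls, a log2 fold change of 0.02 ± 0.41 (adjusted p = 0.975), and its sign turned under 5 of the alternatives.

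**Figure D3:**
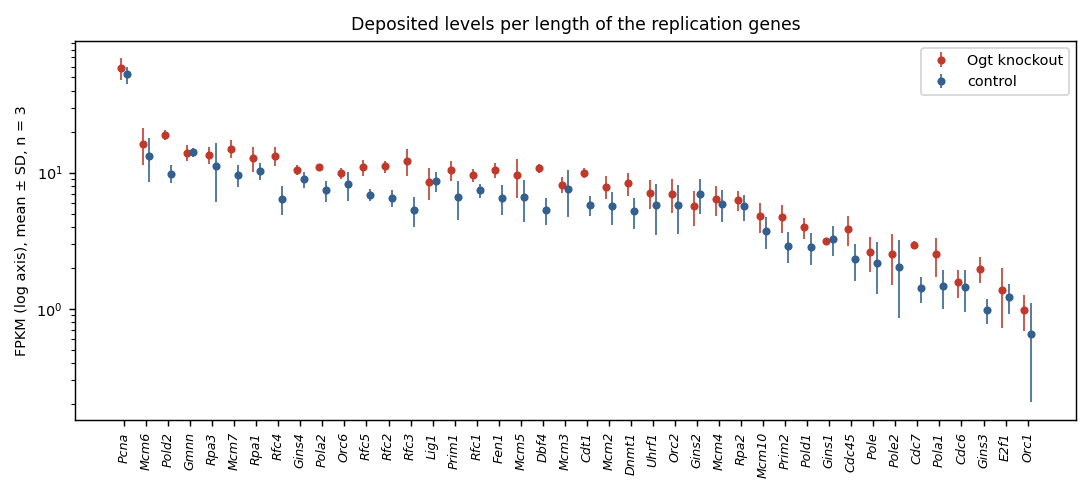
Deposited FPKM (log axis, mean ± SD, n = 3) of the 42 replication genes in Ogt knockout (red) and control (blue) libraries, from the highest overall mean to the lowest. Pcna stands above the others at 58.5 and 52.5 FPKM, and Orc1 is lowest at 0.98 and 0.65 FPKM.

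Levels per length spread widely among the 42 genes. Pcna averaged 58.5 ± 10.9 FPKM in knockout libraries and 52.5 ± 7.55 FPKM in controls, above every other member. In knockout libraries Pold2, Mcm6 (16.3 ± 4.93 FPKM) and Mcm7 (15.01 ± 2.25 FPKM) came next, and neighbours in that order lay within their SDs. In controls Gmnn (14.1 ± 1.13 FPKM), Mcm6 (13.3 ± 4.68 FPKM) and Rpa3 (11.3 ± 5.19 FPKM) came next, again within their SDs. Gmnn also averaged 14.1 ± 1.96 FPKM in knockout libraries. The MCM genes ranged from 6.42 FPKM (Mcm4) to 16.3 FPKM (Mcm6) in knockout libraries and from 5.69 FPKM (Mcm2) to 13.3 FPKM (Mcm6) in controls. Orc1, at 0.98 ± 0.28 FPKM in knockout libraries and 0.65 ± 0.45 FPKM in controls, was the lowest, and with E2f1, Cdc6 and Gins3 it stayed under 2 FPKM on average in both groups.

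The promoters were searched for the letters of E2F sites, because E2F factors drive many replication genes. The strings were TTTCCCGC, TTTGGCGC, TTTCCCGG, TTTGGCGG, TTTGCCGC and TTTCGCGC on both strands, in the RefSeq promoters of build GRCm38.p6, which run from 250 bases before to 50 bases after the gene start. Strings on opposite strands can overlap, as TTTGGCGC and GCGCGAAA do. Of the 42 genes 34 had a promoter in the table, and 17 of these 34 held at least 1 string (50%), against 805 of the 10851 tested genes with a promoter (7.42%). Of the MCM genes 4 of 5 held a string. Of the 7 genes past the threshold that had a promoter, 2 did, Cdt1 and Rfc3, against 15 of the 27 others. A string is a description of the letters, not a site, and no match says only that these letters are not in the window. Shown first are both genes past the threshold that hold a string, then 3 MCM genes that did not pass it, each 5′ to 3′ on the gene's strand with the strings in capitals and 10 bases on either side:
Cdt1, chr8:122568037-122568064 (+): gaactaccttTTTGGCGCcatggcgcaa
Rfc3, chr5:151651191-151651228 (-): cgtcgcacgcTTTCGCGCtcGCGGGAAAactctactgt
Mcm6, chr1:128359794-128359825 (-): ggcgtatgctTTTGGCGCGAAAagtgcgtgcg
Mcm6, chr1:128359735-128359762 (-): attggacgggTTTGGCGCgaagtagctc
Mcm7, chr5:138172031-138172058 (-): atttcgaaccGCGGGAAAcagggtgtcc
Mcm7, chr5:138171850-138171877 (-): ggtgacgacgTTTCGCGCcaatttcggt
Mcm5, chr8:75109346-75109377 (+): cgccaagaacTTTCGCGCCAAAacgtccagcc

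The 250 bases before the start of Dbf4 are shown as those of a gene past the threshold in which none of the strings was found, so that they stand in lower case throughout:
Dbf4, chr5:8422717-8422966 (-): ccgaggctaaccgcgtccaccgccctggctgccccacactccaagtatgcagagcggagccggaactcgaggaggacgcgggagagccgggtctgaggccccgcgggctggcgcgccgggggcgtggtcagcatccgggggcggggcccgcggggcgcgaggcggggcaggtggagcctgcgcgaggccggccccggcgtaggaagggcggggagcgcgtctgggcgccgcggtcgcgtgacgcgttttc

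Outside the 42 genes, 72 further replication and S phase genes in 7 lists were all tested, and 10 were higher and 2 lower, with a median log2 fold change of 0.29. The 10 made up 13.9% of them, against 9.33% of all tested genes. Among 20 polymerase and fork partners, 4 were higher and 0 lower. Pole3, a histone-fold subunit of polymerase epsilon, had 50.9, 57.6 and 54.9 CPM in knockout libraries, against 26.3, 24.9 and 27.1 CPM in controls, a log2 fold change of 1.06 ± 0.10 (adjusted p = 0.00162). It held without any 1 library (highest adjusted p = 0.0148), and its libraries were tight within each group. Pold3, an accessory subunit of polymerase delta, had a log2 fold change of 0.63 ± 0.13 (adjusted p = 0.0156), lost without knockout 1, knockout 3 or control 3. Dna2, a nuclease of Okazaki fragment processing, had a log2 fold change of 1.10 ± 0.21 (adjusted p = 0.0120), lost without knockout 3 (0.0564). Wdhd1, which ties polymerase alpha to the helicase, had a log2 fold change of 0.69 ± 0.16 (adjusted p = 0.0247), lost without any 1 knockout library or control 2.

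The remaining subunits of these complexes, named after their values were seen, did not pass. Pole4, the histone-fold partner of Pole3, had a log2 fold change of -0.39 ± 0.19 (adjusted p = 0.190), and Pold4, the smallest subunit of polymerase delta, one of -0.11 ± 0.18 (adjusted p = 0.699). RFC2 to RFC5 also form alternative loaders with CHTF18, ATAD5 and RAD17 in place of RFC1. The genes of these 3 had log2 fold changes of 0.28 ± 0.27 (Chtf18), 0.50 ± 0.33 (Atad5) and 0.23 ± 0.16 (Rad17), with adjusted p-values of 0.316 or more.

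Among 12 E2F and RB regulators, 2 were higher and 1 lower, against 9.33% and 9.37% of all tested genes. Rb1, which encodes the RB protein, had 100.6, 94.7 and 84.3 CPM in knockout libraries, against 144, 156 and 158 CPM in controls, a log2 fold change of -0.71 ± 0.11 (adjusted p = 0.00516), and it held without any 1 library (highest adjusted p = 0.0288). E2f2, an E2F activator, had 61.9, 40.7 and 55.2 CPM in knockout libraries, against 33.2, 19.4 and 20.1 CPM in controls, a log2 fold change of 1.12 ± 0.25 (adjusted p = 0.0217). E2f6, an E2F repressor, had a log2 fold change of 0.77 ± 0.20 (adjusted p = 0.0311). Both calls were lost without some libraries: E2f2 without knockout 1, knockout 3, control 2 or control 3, and E2f6 without any library other than control 1.

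Of the other lists, 1 of 12 origin partners was higher, Orc3, an origin recognition subunit, with a log2 fold change of 0.47 ± 0.10 (adjusted p = 0.0182), lost without knockout 2, knockout 3 or control 3. Among 8 genes of replication-coupled chromatin assembly 1 was higher, Supt16, which encodes a subunit of the histone chaperone FACT, with a log2 fold change of 0.67 ± 0.12 (adjusted p = 0.0101) that held without any 1 library (0.0414). Of 7 genes of deoxynucleotide supply 1 was higher and 1 lower. Rrm2, the small subunit of ribonucleotide reductase, had a log2 fold change of 0.72 ± 0.20 (adjusted p = 0.0383), lost without any library other than control 1. Chek1, the checkpoint kinase of stalled forks, was the 1 of 8 checkpoint genes past the threshold, with a log2 fold change of 1.0 ± 0.29 (adjusted p = 0.0444), lost without any library other than control 1. None of 5 S phase cyclin and kinase genes passed with edgeR, DESeq2 or limma voom. At an unadjusted p under 0.05 in edgeR's test, 2 of the 5 were higher and 1 lower.

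The mitosis genes, which mark cycling cells by other functions, gave 1 call of 20 (Birc5, log2 fold change 0.66 ± 0.18, adjusted p = 0.0350, lost without any library other than control 1). That is 5.0%, against the 9.33% of all tested genes that were higher. Without control 1 the count was 5 of 20, where 13.6% of all tested genes were higher. Without any other library it was 0, where 3.87% to 6.37% of all tested genes were higher. All 20 had a positive fold change, with a median log2 fold change of 0.50, and 7 had groups apart with the knockout higher (35.0%), against 19.6% of all tested genes. Against that, the median of the 42 replication genes was 0.34.

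**Figure D4:**
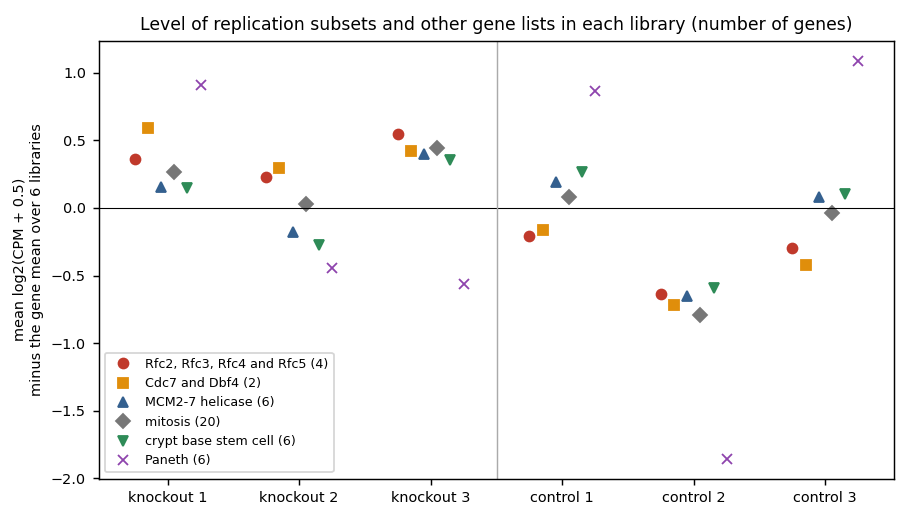
Mean log2(CPM + 0.5) of gene sets in each library, minus the gene means over the 6 libraries, with the number of genes in the legend. Control 2 is low in every set shown, the small loader subunits and the kinase pair are above 0 in each knockout library and below 0 in each control, and the MCM genes are below 0 in knockout 2 and above 0 in control 1 and control 3. The loader and kinase sets were chosen after the values were seen and hold only genes past the threshold. Their separation between the groups follows from that choice.

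Single libraries stood apart. Control 2 had the lowest CPM of the 6 libraries for 33 of the 42 genes, and knockout 3 the highest for 20. Over all genes, control 1 differed from the other controls by a mean chi-square per gene of 83.1 (control 2) and 63.3 (control 3), against 35.8 between control 2 and control 3 and 20.7 to 29.1 between knockout libraries. Without control 1, 1932 genes were higher. The summed level of the 42 genes was 759 to 976 CPM in knockout libraries and 557 to 823 CPM in controls, with 557 CPM in control 2. Control 2 was also low in some other lists and high in others. Of the 6 libraries it had the highest sums of enterocyte markers (30518 CPM), lymphocyte markers (375 CPM), B and plasma cell markers (1825 CPM), endothelial markers (63.2 CPM) and erythroid markers (36.9 CPM). Its sums of myeloid markers (218 CPM) and tuft cell markers (116 CPM) were also the highest, with knockout 2 (212 CPM) and control 1 (113 CPM) next. The 6 Paneth cell markers summed to 935 to 2204 CPM in knockout libraries and 177 to 1924 CPM in controls, with the lowest sum in control 2, and 0 of 6 passed the threshold, also at an unadjusted p under 0.05 in edgeR's test. The 6 crypt base stem cell markers summed to 211 to 449 CPM in knockout libraries and 164 to 348 CPM in controls, with the lowest sum in control 2, and 0 of 6 passed, with 1 lower at an unadjusted p under 0.05. The 20 mitosis genes summed to 647 to 876 CPM in knockout libraries and 341 to 695 CPM in controls. Without control 2, 5 of the 42 genes were higher and 0 lower (Dbf4, Pold2, Rfc2, Rfc3 and Rfc4), 11.9% against 6.37% of all tested genes, and the median log2 fold change was 0.14. The part that the crypt cell content of the libraries has in the other results was not tested.

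Markers of other cells also moved, where 9.33% of all tested genes were higher and 9.37% lower. The 7 tuft cell markers all fell, summing to 18.7 to 26.8 CPM in knockout libraries and 109 to 116 CPM in controls. Of 8 enterocyte markers 3 fell and 0 rose, with sums of 17872 to 21916 CPM in knockout libraries and 20246 to 30518 CPM in controls. Of 5 stromal markers 2 rose, Col1a1 and Col1a2, and the 5 summed to 365 to 426 CPM in knockout libraries and 256 to 360 CPM in controls. The 7 lymphocyte markers summed to 210 to 352 CPM in knockout libraries and 204 to 375 CPM in controls, and the 6 B and plasma cell markers to 794 to 1562 CPM in knockout libraries and 472 to 1825 CPM in controls, with 0 calls in either list by edgeR, DESeq2 or limma voom, and 0 at an unadjusted p under 0.05 in edgeR's test. In the knockout group the lowest B and plasma cell sum was that of knockout 1. By mean log2(CPM + 0.5), centred on the gene means, these markers stood at -2.00 in knockout 1 and between 0.15 and 0.49 in every other library. Of 7 goblet cell markers 2 fell, of 7 enteroendocrine markers 1 rose, and no myeloid, endothelial, smooth muscle or erythroid marker passed, with 2 of 4 smooth muscle markers lower at an unadjusted p under 0.05 and 1 called lower by DESeq2. Of the enteroendocrine markers, DESeq2 called 2 higher and 1 lower, and limma voom 1 higher and 1 lower. At an unadjusted p under 0.05 in edgeR's test, 4 of them were higher and 1 lower. No marker of these lists was at 0 in any library, and Alas2 alone was too low to test. The part of these cells in the result was not tested. Without knockout 1, 4 of the 42 genes were higher (Dbf4, Pold2, Rfc2 and Rfc3), 9.52% against 5.31% of all tested genes.

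**Figure D5:**
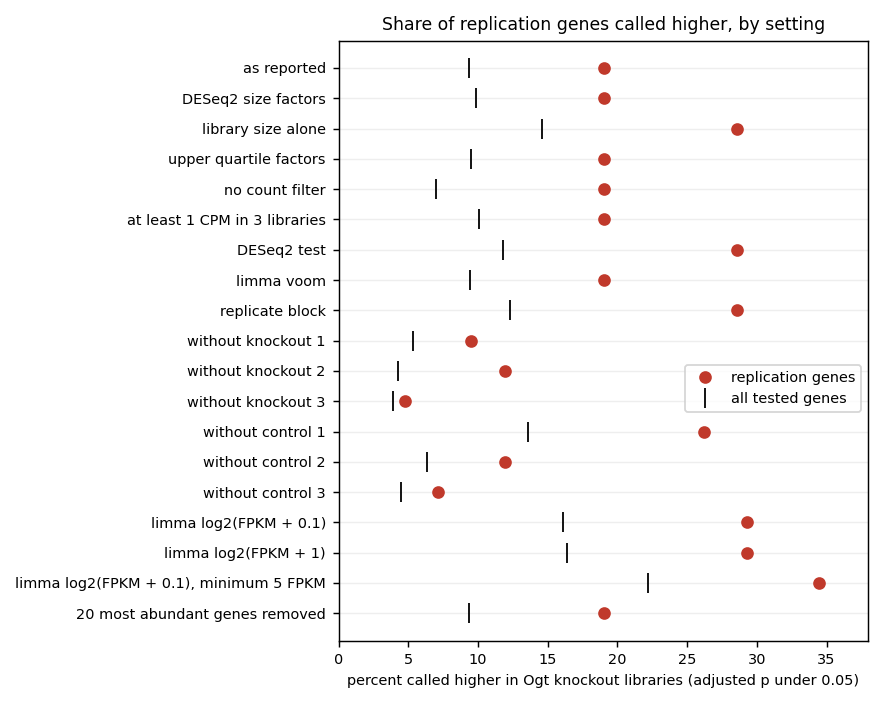
Percent of genes called higher in Ogt knockout libraries (adjusted p under 0.05) among the replication genes (red points) and among all tested genes (black bars), for the reported test and each alternative. The red point lies right of the bar in each setting, and it is nearest to it without knockout 3, at 4.76% against 3.87%. The replication genes were chosen with earlier results of these data known, and the settings share the same libraries.

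Leaving out each library in turn left between 2 and 11 of the 42 genes higher and 0 lower. The count was 2 without knockout 3 (Pold2 and Rfc2), 4.76% against 3.87% of all tested genes. It was 3 without control 3 (Cdt1, Pold2 and Rfc2), 7.14% against 4.51% of all tested genes. It was 4 without knockout 1, 9.52% against 5.31%, and 5 without knockout 2, 11.9% against 4.23%. Without control 1 it was 11, the 8 genes with Fen1, Mcm7 and Gins3 added, 26.2% against 13.6% of all tested genes. Pold2 and Rfc2 were the 2 replication genes called in all 6. The count was 12 with DESeq2's test (28.6%, against 11.8% of all tested genes) and with library size alone (28.6%, against 14.6%). It was also 12 with limma on log2(FPKM + 0.1) (29.3%, against 16.1%) or log2(FPKM + 1) (29.3%, against 16.4%). Of the 42 genes, 41 could be tested on FPKM. In each case Fen1, Mcm7, Gins3 and Pola2 were added to the 8 genes. With a minimum of 5 FPKM the count was 10 of 29, 34.5% against 22.2% of all tested genes.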

How the data were processed

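Bulk RNA sequencing was measured in 3 Ogt knockout and 3 control libraries of ileal epithelial cells. Per the labels' protocols, Trizol was used for extraction and the NEBNext Ultra RNA kit for library preparation. Builds GRCm39 and mm39 are named in the submitters' processing notes. Aligner, counter and annotation were not given in the sources used here. Per gene and library, the authors deposited estimated counts (expected counts) of 22274 genes, per the file headers. They also deposited FPKM values, scaled for transcript length and library total with lengths that are not stated. Between 7.68% and 8.09% of the estimated counts in a library were not whole (tolerance 0.001).

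Estimated counts were rounded. Genes were filtered with filterByExpr (minimum count 10, minimum total 15), scaled with TMM factors and tested with the robust quasi-likelihood test of edgeR (4.0.16, under R 4.3.3) over all tested genes, with Benjamini-Hochberg adjustment and a threshold of 0.05. The SE comes from the F statistic. Of the IDs, 22219 were named with GENCODE M21 (of the older build GRCm38; also the source of exon overlaps) and 55 from the deposited table. No pair of libraries agreed within sampling noise (chi-square per gene at least 20.7). A floor of 3 counts is 0.159 to 0.207 CPM in a library.

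The 42 genes, the other lists and the tests were chosen with earlier results of these data known. Named are the genes past the threshold, in each role the gene of highest mean FPKM and that of smallest p, Ogt, and up to 4 called genes of each other list; others are named for their role or after their values were seen. In the lists of other replication genes, 1 gene past the threshold is counted but not reported here. The alternatives were other scalings (library size alone, upper quartile factors, DESeq2 size factors), other filters (none, and 1 CPM in 3 libraries), DESeq2 1.42.0, limma 3.58.1 with voom, limma on log2 FPKM with a pseudocount of 0.1 or 1 (minimum of 1 FPKM in 3 libraries, or of 5 FPKM), the replicate number as a block, removal of the 20 most abundant genes, and each library left out in turn. Figures were drawn with matplotlib 3.10.9.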

Additional observations from a re-analysis of the deposited data

How the results depend on the processing

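With DESeq2 size factors, upper quartile factors, both other count filters, limma voom or the 20 most abundant genes removed, 8 replication genes were higher and 0 lower. The count was 12 with DESeq2's test, with library size alone, with the replicate block and with limma on log2(FPKM + 0.1) or log2(FPKM + 1), and 10 of 29 with a minimum of 5 FPKM. Over all tested genes, library size alone gave 2045 higher and 859 lower, and limma on FPKM gave 724 (pseudocount 0.1), 738 (pseudocount 1) and 596 lower (minimum of 5 FPKM). Of the 72 other replication genes, 17 were higher with library size alone, where 14.6% of all tested genes were. Those lower numbered 1 with library size alone, 1 with upper quartile factors and 4 with the replicate block. Of all tested genes, 6.13%, 9.3% and 12% were lower in these settings. Leaving out each library in turn gave 549 to 1932 genes higher and 460 to 1372 lower, 2 to 11 replication genes higher, 2 to 17 other replication genes higher and 1 to 2 lower, 0 to 5 mitosis genes higher, and a median log2 fold change of the 42 genes of 0.14 to 0.53. The cause of these moves was not tested, beyond the fewer libraries. Among the genes named, with each library left out in turn, 115 gene and setting pairs kept their call and direction, 61 lost their call, 2 gained one and 8 turned in sign; under the other settings the numbers were 347, 5, 12 and 3. The turns were Mcm6 (-0.0718 without knockout 3, -0.0731 without control 2; range up to 0.375), Pcna (-0.111 without knockout 3, -0.0457 without control 2; up to 0.149), Rpa3 (-0.0133 without control 2; up to 0.604), Gmnn (0.0068 with library size alone) and E2f1 (-0.0992 with voom, -0.0539 with the replicate block, -0.166, -0.203 and -0.133 without knockout 1, knockout 3 and control 2; up to 0.369), none of which was past the threshold as reported. Same-numbered knockout and control libraries deviated from their group means with r = 0.27, 0.25 and 0.08 over the 14005 genes, so the numbers were not taken to pair the libraries, although each library correlated best with its own number, a hint from the data and not from the design. With the number as a block, 1728 of all tested genes were higher (12.3%) and 1674 lower (12%). Of the replication genes, 12 of 42 were higher (28.6%, Mcm7 among them, adjusted p = 0.0181 by edgeR), and of the mitosis genes 8 of 20. Depth limits Orc1, E2f1, Gins1, Gins3, Cdc6 and Pole2 most, and the least abundant value of a replication gene rested on 12 counts.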
